A study of Mus musculus with 4 samples.

Results

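Of the accessible regions mapped in 10T1/2 mouse fibroblasts, 3145 had a peak in the longest list of each genotype and in neither of the shorter lists, and they are described here as long-list regions. They were found by joining all peaks of the 4 libraries that overlapped by at least 1 bp and keeping the regions on chromosomes 1 to 19 and X with a peak in knockout replicate 2 and wild-type replicate 1, and none in knockout replicate 1 or wild-type replicate 2. They made up 8.10% of the 38817 merged regions on these chromosomes and 16.2% of the 19394 that both long lists contained. They were chosen by the presence of peaks in the 4 lists, which depends on −log10 q, so peak strength is given below as a description, without a test. Each has a peak in 1 library of each genotype by that choice, so the genotypes cannot be compared over them.

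Chromatin was opened with the Tn5 transposase (ATAC-seq, by the Omni-ATAC protocol) in nuclei of 2 groups of cells. The knockout group was a Ranbp2 knockout of 10T1/2 made with CRISPR-Cas9, and it was 1 clone grown from a cell sorted for GFP. The other group was wild-type 10T1/2, labelled as mouse embryonic fibroblast, and both were kept in DMEM with serum. Each group had 2 libraries, and nothing in the labels says that these came from separate cultures.

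A transposase cuts DNA that nucleosomes leave exposed, and cut sites pile up into peaks over active promoters and distal regulatory elements. Promoters of widely used genes tend to be rich in CpG and to give strong peaks. Distal elements such as enhancers are more often particular to a cell type and tend to give lower peaks, so that fewer of them pass a caller's threshold when a library is shallow. A region absent from a list may be open but below that list's threshold.

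The bases of some of these regions are shown first, to let peaks at gene starts be read as sequence. The 6 shown are among the stronger long-list regions and do not stand for the weak regions of the group. Their percentiles by −log10 q were 55.4 to 68.6 in knockout replicate 2 and 64.1 to 84.3 in wild-type replicate 1. Percentiles are taken within each list, from the weakest peak up. The lines give, for the 6 strongest long-list regions at gene ends with a stretch of at least 60 bases upstream of an annotated start and outside every annotated gene, that stretch 5′ to 3′ on the gene's strand, from RefSeq (GRCm38.p6, the primary coordinates of mm10). Capitals mark GGGCGG, the GC box of Sp and Klf factors, CCAAT, the site of NF-Y, or TATAAA, the TATA box, on either strand.
Cep97 (chr16:55934849-55934961, minus strand): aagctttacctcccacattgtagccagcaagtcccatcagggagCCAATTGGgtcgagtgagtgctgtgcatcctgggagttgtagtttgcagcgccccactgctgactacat
Prmt2 (chr10:76237866-76238000, minus strand): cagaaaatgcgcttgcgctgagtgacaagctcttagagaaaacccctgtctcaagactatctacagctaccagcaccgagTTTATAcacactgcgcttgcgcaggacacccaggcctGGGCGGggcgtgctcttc
Chst2 (chr9:95407275-95407483, minus strand): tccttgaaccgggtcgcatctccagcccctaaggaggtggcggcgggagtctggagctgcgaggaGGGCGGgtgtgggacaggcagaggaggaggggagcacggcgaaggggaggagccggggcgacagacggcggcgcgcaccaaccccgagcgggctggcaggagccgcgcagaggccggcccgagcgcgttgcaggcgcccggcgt
Rita1 (chr5:120612590-120612674, minus strand): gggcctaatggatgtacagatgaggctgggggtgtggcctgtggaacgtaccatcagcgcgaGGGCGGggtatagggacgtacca
Commd4 (chr9:57158350-57158471, minus strand): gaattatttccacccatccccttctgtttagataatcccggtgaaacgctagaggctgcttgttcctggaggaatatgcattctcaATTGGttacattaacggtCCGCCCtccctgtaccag
Mtg2 (chr2:180070507-180070572, plus strand): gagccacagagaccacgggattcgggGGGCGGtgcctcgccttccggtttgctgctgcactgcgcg
GC content ran from 47.5% at Commd4 to 74.6% at Chst2, which also held the most CpG, 25 in 209 bases, against 2 in 113 bases at Cep97. A GC box was present in 5 of the 6, and the Cep97 stretch had a CCAAT and no GC box.

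The lists differed in length within each genotype. The knockout lists had 13877 and 24292 peaks and the wild-type lists 33721 and 18511, with −log10 q starting just above 3 in each. Sequencing depth is unknown, since the files hold no read counts. Of 50 markers of other cell types (neural, immune, endothelial, epithelial and pluripotent), 0 had a peak within 1 kb of a gene end in either knockout library and in wild-type replicate 2, and 3 did in wild-type replicate 1. Of 20 fibroblast and matrix genes, 7 and 11 had one in the knockout libraries and 16 and 11 in the wild-type libraries.

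Long-list regions sat in the lower part of both lists they came from, but not at the bottom. The strength of a peak is given as its percentile by −log10 q within its own list, where 100 is the strongest peak. The median percentile was 28.1 in knockout replicate 2, with the middle 50% of regions between 16.2 and 40.9, and 34.7 in wild-type replicate 1, between 19.7 and 48.8. The median fold enrichment over local background, as the authors' caller gave it, was 5.48 in knockout replicate 2 and 6.39 in wild-type replicate 1, against list medians of 6.78 and 7.72. The weakest had a −log10 q of 3.0 in knockout replicate 2 and 3.05 in wild-type replicate 1, at the edge of what the authors deposited. The closest peak of a short list touched its long-list region end to end, without sharing a base. The highest percentile reached was 90.3 in knockout replicate 2 and 84.3 in wild-type replicate 1.

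**Figure D1:**
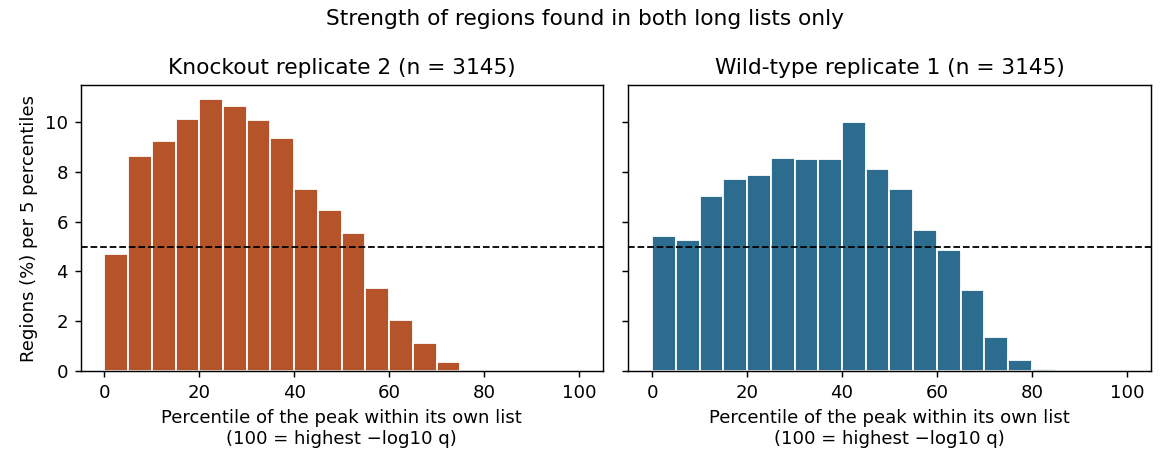
Percentile of the peaks of the 3145 long-list regions within knockout replicate 2 (left) and wild-type replicate 1 (right), as the percent of regions per 5 percentiles; the dashed line is the 5% an even spread over the list would give. Both distributions are highest in the lower and middle part of the list, with medians of 28.1 and 34.7.

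Peak strength in the 2 lists was weakly related. Across the 3145 regions the percentiles in the 2 lists had a Spearman correlation of 0.29 and a Pearson correlation of 0.30, against 0.81 and 0.71 across the 10868 regions present in all 4 lists, which cover a wider range of strength. Regions that 1 short list also held had similarly low values. They were 0.27 and 0.29 with knockout replicate 1 (1308 regions), and 0.40 and 0.39 with wild-type replicate 2 (4073 regions). These are correlations across regions of the same 2 libraries, and the regions are not independent replicates.

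Presence in the short lists fell away with weaker peaks. The 19394 regions in both long lists were ranked by the mean of their 2 percentiles and divided into 10 equal classes of strength, class 1 being the weakest. In class 1, 65.8% were long-list regions and 3.92% were in all 4 lists. In class 4 the shares were 16.1% and 31.2%, and in classes 9 and 10 there was no long-list region and 99.2% and 99.7% of regions were in all 4 lists. Regions that 1 short list also held came between, and wild-type replicate 2 held more of them (4073) than knockout replicate 1 (1308), the shorter of the lists.

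**Figure D2:**
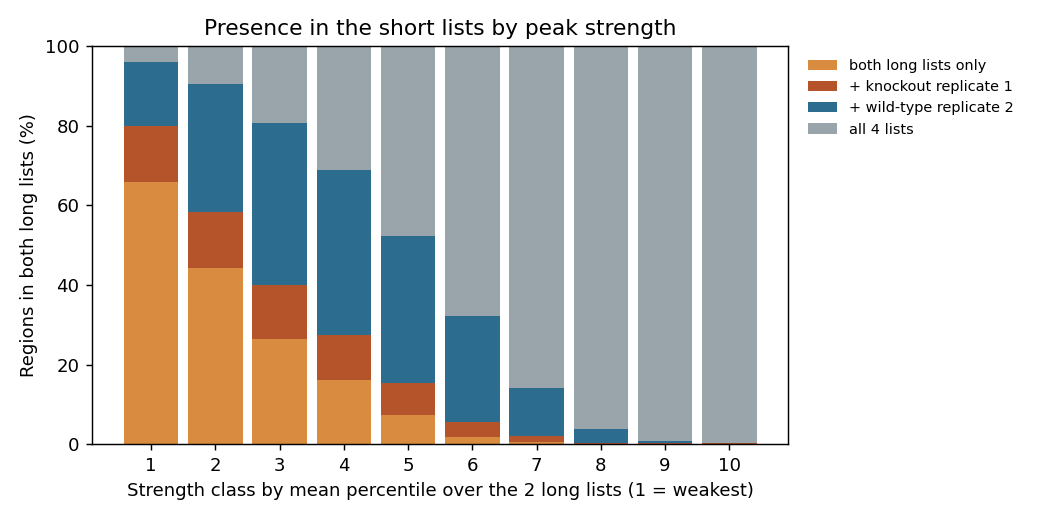
Regions in both long lists by strength class, from their mean percentile (1 is the weakest), as the percent that no short list held, that knockout replicate 1 or wild-type replicate 2 held as well, and that all 4 lists held. The share in no short list is 65.8% in class 1 and 0 in classes 9 and 10.

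Most, but not all, of these regions needed a long list to be seen. With both lists cut to the 13877 top peaks, the length of the shortest list, 2269 regions (72.1%, Wilson 95% interval 70.6 to 73.7) lost both peaks and 157 (4.99%, 4.28 to 5.81) kept both. The peak of knockout replicate 2 was kept in 685 and that of wild-type replicate 1 in 348. With each long list cut to the short list of its own genotype, 13877 and 18511 peaks, 337 regions (10.7%, 9.68 to 11.8) kept both. The name of weak regions therefore describes the group and not each region, since the 157 ranked high enough in both long lists to enter a list of the shortest length. Of the 729 regions at gene ends 66 (9.05%) kept both peaks, against 91 of the other 2416 (3.77%). Intervals on shares of regions cover counting error only.

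The peaks of the 2 libraries lay on nearly the same bases. The distance between their summits, which the choice of regions did not use beyond overlap of the peaks, had a median of 22 bp, and 2466 regions (78.4%) had summits within 50 bp. In 159 regions (5.06%) both summits were on the same base. In regions of all 4 lists the median was 12 bp and 83.6% lay within 50 bp. With long-list regions divided by strength into 5 equal groups, from weakest to strongest, the median distance was 34, 27, 18, 18 and 11 bp, so the summits were closer where peaks were stronger. The regions were narrow, with a median width of 164 bp (96 to 653), against 287 bp for regions of all 4 lists. In 3138 of the 3145 each library contributed 1 peak.

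Long-list regions lay at gene ends less often than regions of all 4 lists and more often than regions found in 1 long list alone. A region is counted at a gene end where it comes within 1 kb of the first or last base of a protein-coding span. Gene ends held 729 long-list regions (23.2%, Wilson 95% interval 21.7 to 24.7), 5251 regions of all 4 lists (48.3%, 47.4 to 49.3), 287 of those in knockout replicate 2 alone (7.19%, 6.43 to 8.04) and 1764 of those in wild-type replicate 1 alone (16.0%, 15.3 to 16.7). Of the other long-list regions 1198 (38.1%) lay inside gene spans and 1218 (38.7%) outside them, and exons and introns were not told apart. Over all 3145, the distance to the nearest gene end had a median of 11.5 kb, against 1.34 kb for regions of all 4 lists. Adding wild-type replicate 2 to the long lists gave 35.8% at gene ends, and adding knockout replicate 1 gave 15.7%, so the share depended on which short list joined them. The share of long-list regions also moved with list length and with the libraries used, and the other sets were not counted again under these changes. With all lists cut to 13877 peaks the rule gave 46.8% at gene ends and a median distance of 1.91 kb, and without wild-type replicate 1 it gave 14.3% and 20.4 kb. No test was made between these sets, which come from the same 4 libraries.

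At matched strength the gene-end shares of long-list regions and of other regions had overlapping intervals. In class 1 it was 16.4% (14.5 to 18.6), against 16.0% (13.4 to 19) for regions that a short list held as well. In class 4 it was 35.1% (30.1 to 40.6), against 30.4% (28.2 to 32.6). The intervals overlapped in each of the 6 classes with at least 20 long-list regions. The long-list share was still the higher in classes 1, 3, 4, 5 and 6, with 29.2% against 25.2% in class 3 and 45.5% against 39.5% in class 6. It was the lower in class 2, with 21.7% against 23.5%. Overlap of intervals does not show that the shares are equal, and no test was made. Among long-list regions alone, the share was 14% in the weakest of the 5 groups and 35.3% in the strongest, where gene ends lay at median distances of 18.7 kb and 5.76 kb.

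**Figure D3:**
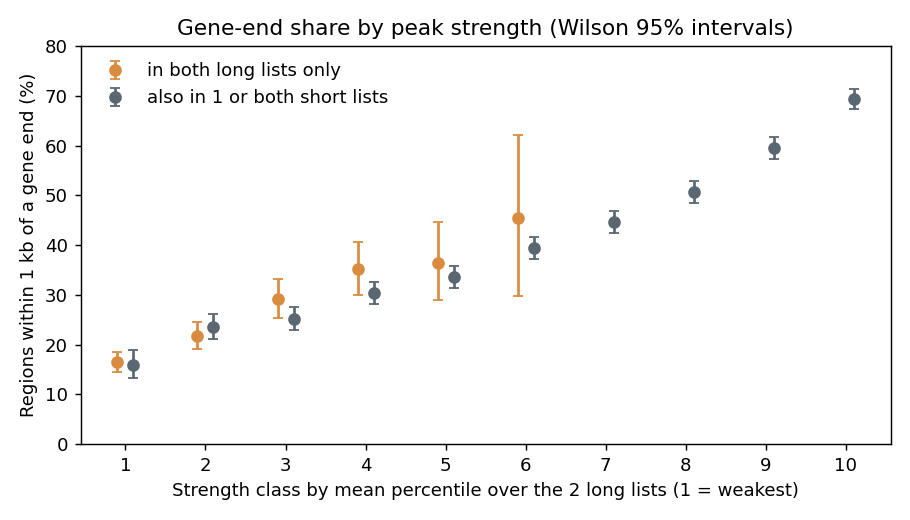
Percent of regions within 1 kb of a gene end by strength class over both long lists, for long-list regions and for regions that 1 or both short lists held as well; bars are Wilson 95% intervals and classes with under 20 regions are left out. Both sets rise with strength, and their intervals overlap in each of the 6 classes they share.

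At gene starts the summits of long-list regions were spread more widely than those of regions in all 4 lists. The position used here is the midpoint of the summits in knockout replicate 2 and wild-type replicate 1. Starts with their strand were taken from the RefSeq promoter table, which has none on chromosome 18. It also lacks starts on other chromosomes, since its windows cover 17469 genes, against 21887 protein-coding genes. The region covering an end of Gfus on chromosome 15, for example, lay 661306 bp from the nearest start in it. A summit near a missing start was counted as away from starts or placed against another one, so the shares below can be too low. Of 3050 long-list regions on the other chromosomes 692 (22.7%) had their summit within 2 kb of a start, and of these 285 (41.2%) lay in the 250 bp upstream, 131 (18.9%) in the 250 bp downstream and 276 (39.9%) farther away. Of 4955 such regions in all 4 lists, 3377 (68.2%) lay in the 250 bp upstream and 893 (18%) farther than 250 bp from the start. The median distance of the summit from the start, in either direction, was 110 bp for long-list regions and 81 bp for regions of all 4 lists. Regions of all 4 lists were stronger, with median percentiles of 76.6 in knockout replicate 2 and 83.1 in wild-type replicate 1. The spread of summits was not compared at matched strength.

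**Figure D4:**
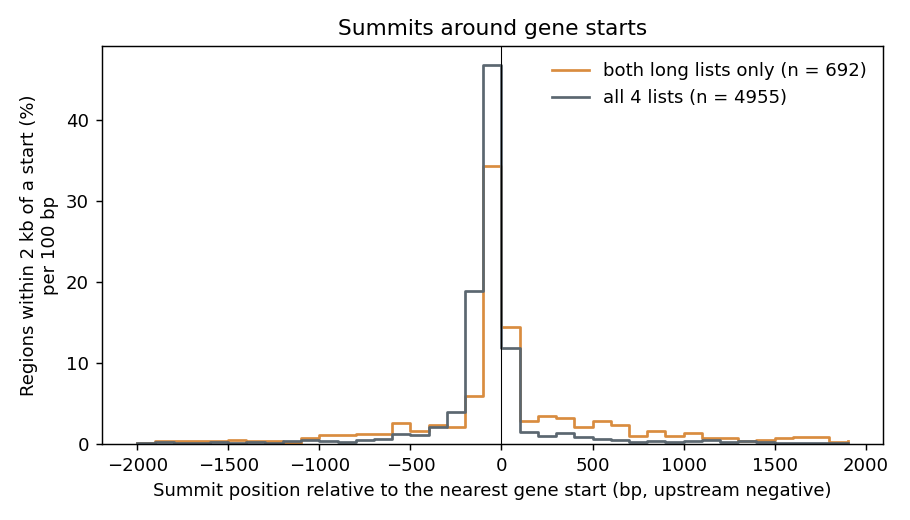
Position of the summit, as the midpoint of the summits in both long lists, relative to the nearest gene start. Regions within 2 kb of a start are shown per 100 bp, with upstream negative, for 692 long-list regions and 4955 regions of all 4 lists. Both peak just upstream of the start; long-list regions have 39.9% of summits beyond 250 bp, against 18%.

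The promoters that carried a long-list summit were CpG-rich. In the windows from 250 bp before to 50 bp after a start, 425 windows of 401 genes held a summit, with a median GC content of 61.3% and 21 CpG per window. Windows with a summit of all 4 lists (4596) had 62.0% GC and 23 CpG, and the 12975 windows that touched no region had 51.7% and 5 CpG. A GC box (GGGCGG, either strand) was present in 65.4% (60.8 to 69.8) of windows with a long-list summit, 73.6% (72.3 to 74.8) of those of all 4 lists and 46.2% of all 21238 windows. CCAAT, on either strand, was present in 31.8% (27.5 to 36.3), 51.4% (50.0 to 52.9) and 38.2% of these windows. Windows of 1 gene can overlap, so they are not independent.

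The CCAAT share rose with peak strength among regions that a short list held as well. In classes 1 and 2 it was 29.5% (23.9 to 35.7) of the 224 windows with a long-list summit and 28.4% (22.7 to 34.8) of the 208 windows with another summit of both long lists. In classes 3 and 4 it was 37.3% (30.0 to 45.1) of 153 windows with a long-list summit, against 34.0% (30.3 to 37.9) of 600. In classes 5 and 6 it was 19% (9.98 to 33.3) of 42 windows, against 39.0% (36.1 to 42.1) of 1012. In classes 9 and 10, where no long-list region lay, 61.9% (59.9 to 63.9) of 2314 windows had a CCAAT. GC-box shares follow, with long-list windows first and the other windows of both long lists second. They were 66.5% (60.1 to 72.4) and 71.2% (64.7 to 76.9) in classes 1 and 2. In classes 3 and 4 they were 66.7% (58.9 to 73.6) and 65.7% (61.8 to 69.4). In classes 5 and 6 they were 57.1% (42.2 to 70.9) and 69.6% (66.7 to 72.3). The other letters searched on both strands were TGANTCA, which includes the AP-1 site, GGAATG, the TEAD core, CACGTG, an E-box, and TATAAA. They were found in 5.41%, 10.1%, 10.1% and 5.41% of windows with a long-list summit, against 4.26%, 10.7%, 11.5% and 4.85% of windows with a summit of all 4 lists and 6.99%, 13.6%, 7.84% and 12.6% of all windows. A match describes the letters and not the binding of a factor.

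Of the 15 strongest long-list regions 9 lay at gene ends, 5 lay inside genes away from their ends and 1 had no gene nearby. All 15 belonged to the 157 that kept both peaks at the length of the shortest list. Their lowest percentiles were 57.3 in knockout replicate 2 and 64.0 in wild-type replicate 1. The first by mean percentile, on chromosome 17 at 13551874-13551989, had no protein-coding gene within 100 kb and stood at percentiles 90.3 in knockout replicate 2 and 75.0 in wild-type replicate 1. Its fold enrichment was only 5.47 and 5.14 in these libraries, although its −log10 q was 58.3 and 40.9. The second lay 427 bp from an end of Rnf41, an E3 ubiquitin ligase (chromosome 10, 128441868-128441974), with folds of 9.90 and 14.9. The third lay 90 bp from an end of Slc4a7, a sodium bicarbonate cotransporter (chromosome 14, 14702784-14702921), with the highest wild-type fold of all long-list regions, 15.5, and 11.2 in knockout replicate 2. The highest knockout fold, 13.5, belonged to a 98 bp region inside Ica1 (chromosome 6, 8730130-8730227), 48.3 kb from its nearest end, which had 11.1 in wild-type replicate 1.

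Several of these strong regions covered a gene start. That of Cep97, a centrosomal protein (chromosome 16, 55934784-55934961), whose CCAAT stretch is printed above, had folds of 9.05 in knockout replicate 2 and 14.9 in wild-type replicate 1. Dnajb2, a co-chaperone of Hsp70 (chromosome 1, 75236420-75236602), had 8.47 and 13.4 in these libraries. Zfp873, a zinc-finger gene (chromosome 10, 82048005-82048160), had 9.31 and 12.3, with both summits on the same base. Trip11, a golgin of the Golgi (chromosome 12, 101913089-101913253), had 9.46 and 11.5, and Prmt2, an arginine methyltransferase (chromosome 10, 76237809-76238000), had 9.30 and 10.2. The region of 4933440N22Rik also covered a start in the promoter table. The remaining gene-end regions among the 10 strongest were those of Ephx1, the microsomal epoxide hydrolase, and Gfus, which makes GDP-fucose. Inside genes and away from their ends lay regions of R3hdm2, Cpa6, a carboxypeptidase, Dnm3, a dynamin, and Plcl2, at percentiles of 69.9 to 81.1 in knockout replicate 2 and 66.9 to 72.5 in wild-type replicate 1.

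The nearest genes of long-list regions included matrix and receptor genes of fibroblasts. Of 21887 protein-coding genes, 2413 (11.0%) were the nearest within 100 kb of at least 1 long-list region, 2045 of 1 region only and 75 of 3 or more. The remaining 254 regions had no gene that near. Of 20 fibroblast and matrix genes 7 (35.0%) were among them, and 15 had a region of all 4 lists. These were Fbn1, the microfibril protein, and Lox, the collagen crosslinking enzyme, with 2 regions each, and Col3a1, Col5a1, Col5a2, Pdgfra and Pdgfrb with 1. The Col5a2 region (chromosome 1, 45432036-45432150) stood at percentiles 35.9 in knockout replicate 2 and 48.5 in wild-type replicate 1, and that of Pdgfrb, a growth factor receptor (chromosome 18, 61058484-61058619), at 12.7 and 68.5.

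Transcription factors of the lineage were reached in the same way, mostly far from their ends. Of 19 mesenchymal factors 5 (26.3%) had a long-list region, namely Zeb1, Zeb2, Nfia, Nfib and Nfix, and 6 of their 8 regions lay inside the gene. The Zeb1 region, 44.9 kb from this repressor of epithelial genes, stood at 35.3 in knockout replicate 2 and 67.0 in wild-type replicate 1. Of 15 AP-1 genes, encoding the stimulus-driven Jun and Fos family and its partners, 5 (33.3%) had one, namely Junb, Atf3, Maff, Bach1 and Bach2. Of 16 TEAD and YAP genes 4 (25.0%) did, among them Tead1, the DNA-binding partner of YAP, with a region 371 bp from its nearest end, and Ccn2, a secreted target of YAP, with one 41.1 kb away. Over all protein-coding genes the share was 11.0%. Regions of all 4 lists were also frequent at these genes, at 57.9% of the mesenchymal, 86.7% of the AP-1 and 75.0% of the TEAD and YAP genes, against 33.9% of all genes.

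Signalling pathways of fibroblasts were also represented. Of 22 TGF-beta and BMP genes 8 (36.4%) had a long-list region, with 4 at the ligand Tgfb2, 2 at the inhibitory Smad6 and 1 each at the receptors Tgfbr3 and Bmpr1a, at Smad4, at Ltbp1 and Ltbp2, which bind latent TGF-beta, and at Ski, a repressor of Smad signalling. Of 19 Wnt genes 7 (36.8%) had one, among them the co-receptor Lrp5 and Ror1, a receptor whose start was covered by a region at percentiles 48.0 in knockout replicate 2 and 57.2 in wild-type replicate 1. Of 12 Hedgehog genes 4 (33.3%) did, the transcription factors Gli2 and Gli3, their restraint Sufu, and Kif7, a cilium kinesin. Of 22 axon guidance and adhesion genes 5 (22.7%) did, and of 18 smooth muscle and actin genes 5 (27.8%), with 4 regions at Cald1, which encodes the actin-binding caldesmon, and 2 at Tpm1, a tropomyosin. Over all protein-coding genes the share was 11.0%. A region of all 4 lists was near 68.2%, 52.6%, 58.3%, 36.4% and 66.7% of these 5 lists in the order given, against 33.9% of all genes.

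Genes of other lineages and processes varied around the 11.0% of all protein-coding genes. Of 18 skeletal muscle genes 0 had a long-list region, although 5 had one of all 4 lists. Of 15 adipogenic genes 2 (13.3%) did, Cebpb and Lpl, and of 16 bone and cartilage genes 3 (18.8%) did, Runx1, Runx2 and Spp1. Of the 50 marker genes of other cell types 1 (2.00%) did, Gfap, with a region 2.18 kb from its nearest end, and 5 (10.0%) had a region of all 4 lists. Of 19 Ran transport and nuclear pore genes 2 (10.5%) had one, the import receptors Kpna1 and Kpna2, while 15 had a region of all 4 lists. Of 16 SUMO genes 3 (18.8%) had one, the ligase Pias2 and the proteases Senp1 and Senp7. The nearest long-list region to Ranbp2 itself lay 214 kb away.

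Genes with a long-list region inside were longer than most. The 1433 genes with a long-list region inside had a median span of 59.5 kb, against 17.2 kb for all protein-coding genes, and the median span was 33.9 kb in the fibroblast list, 69.0 kb in the TGF-beta and BMP list and 12.9 kb in the skeletal muscle list. In the axon guidance and adhesion list it was 309 kb. Of the 2413 nearest genes 1306 (54.1%) also had a region of all 4 lists, against 33.9% of all protein-coding genes. The part of gene span in the counts of each list was not tested. Fewer genes, 711 (3.25%), had a long-list region at a gene end, among them Fbn1, Tead1, Vgll4, Tgfbr3, Cebpb and Kif7.

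The genes with the most long-list regions were of different kinds. Msn, which encodes moesin, the link between actin and the plasma membrane, had 5, and so had Ktn1, which encodes the kinesin receptor kinectin. Of the Msn regions 3 lay inside the gene and 2 lay 18 and 42.9 kb outside it. The strongest, 11.5 kb from the nearest gene end (chromosome X, 96107502-96107692), had −log10 q of 21.5 in knockout replicate 2 and 9.40 in wild-type replicate 1. The Ktn1 regions had −log10 q from 4.11 to 15.5 in knockout replicate 2 and from 5.68 to 14.3 in wild-type replicate 1, and 0 regions of all 4 lists had Ktn1 as their nearest gene. At Tgfb2, 2 of the 4 lay inside the gene and the others 40.4 and 54.4 kb outside it, and at Cald1 3 of 4 lay inside. A region of all 4 lists stood at the start of Cald1 with −log10 q of 96.6 in knockout replicate 2 and 139 in wild-type replicate 1, well above the values of the 4 long-list regions.

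**Figure D5:**
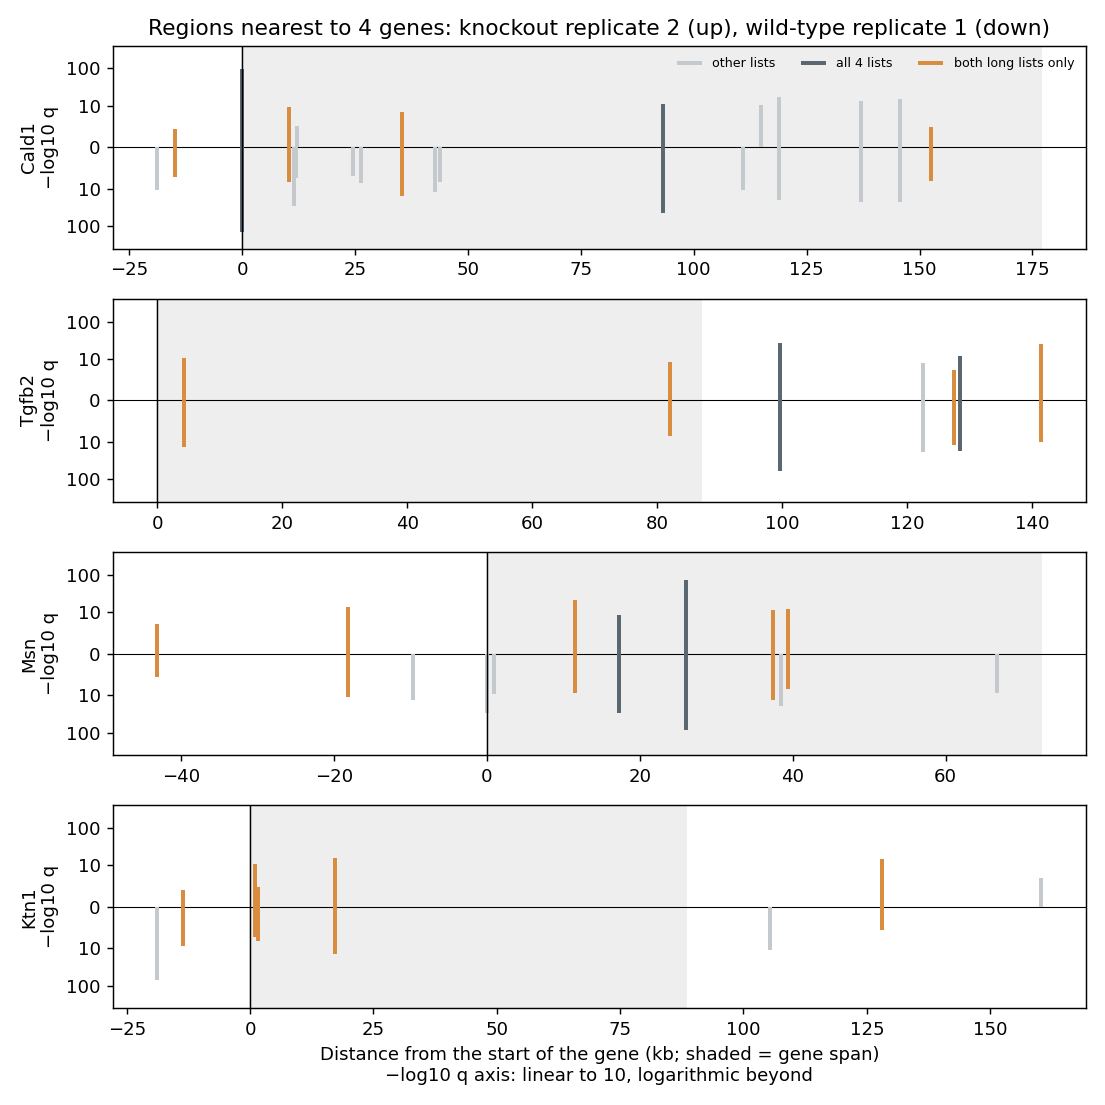
Regions whose nearest gene is Cald1, Tgfb2, Msn or Ktn1, by distance from the gene's start; bars give −log10 q in knockout replicate 2 (up) and wild-type replicate 1 (down) on an axis that is linear to 10 and logarithmic beyond, and shading is the gene span. Long-list regions number 4, 4, 5 and 5, and these genes were chosen after their counts were seen.

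The other kind lay in dense windows of long-list regions, called arrays here. The densest 1 Mb window, on chromosome 8 at 20000001-21000000, held 30 long-list regions, 10 of them nearest to Gm15319 and 7 nearest to Gm21119. The next, on chromosome 5 at 15000001-16000000, held 21, near Gm17019, Speer4d and other members of the Speer family. A window with any long-list region held a median of 2. Fold enrichment was low in both windows, with medians of 3.14 and 3.90 in knockout replicate 2 and 3.10 and 3.63 in wild-type replicate 1, against 5.48 and 6.39 over all long-list regions. Regions of all 4 lists were also numerous there, 28 and 36. How alike the genes of each array are in sequence was not examined, and the placing of reads that match several places is not described in the labels. 4930467E23Rik, also on chromosome 8, had a further 5 regions.

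Including both arrays, 8 windows held at least 10 long-list regions and 114 held at least 5. The next densest were on chromosome 17 at 35000001-36000000, with 13, and on chromosome 4 at 147000001-148000000, with 11 near Zfp978 and other zinc-finger genes. Over all long-list regions, those in the arrays included, the median distance to the nearest other long-list region was 126 kb, and 320 (10.2%) had one within 10 kb. The nearest region of all 4 lists lay at a median of 29.6 kb, close to the 28.5 kb between regions of all 4 lists, and 328 (10.4%) had one within 1 kb. A peak of a short list, although it did not overlap, lay within 250 bp of 198 regions (6.30%). Within 1 kb of a short-list peak lay 520 (16.5%).

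The share varied by chromosome. Long-list regions made up between 13.0% (11 to 15.2) of the regions in both long lists on chromosome 9 and 20.1% (17.5 to 23.1) on chromosome 12, against 16.2% over all. The intervals of these 2 chromosomes and of chromosome 11 (14.1%, 12.5 to 16.0) did not include the overall share, and no difference between chromosomes was tested. Chromosome 2 held the most in number, 234, and chromosome X the fewest, 73.

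A single long-list region covered a microRNA. The region on chromosome 11 at 75173563-75173781 contained all 66 bases of the Mir132 hairpin (chr11:75173682-75173747, plus strand) and lay 85 bp from that of Mir212. It stood at percentiles 29.3 in knockout replicate 2 and 36.9 in wild-type replicate 1, with folds of 5.13 and 5.67. The hairpin and both mature arms are printed as RefSeq gives them, with bases 2 to 8, the seed that pairs with targets, in capitals.
Mir132 hairpin: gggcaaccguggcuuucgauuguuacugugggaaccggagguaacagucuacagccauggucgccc
mmu-miR-132-5p: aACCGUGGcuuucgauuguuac
mmu-miR-132-3p: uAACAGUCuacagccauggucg
The seeds of the arms differ. This locus was chosen after its position was seen, and the peak shows open DNA and not whether the microRNA was made. Of the other microRNA hairpins within 250 bp of a long-list region, that of Mir344b lay 5 bp away, that of Mir762 40 bp, that of Mir707 115 bp and that of Mirlet7i 144 bp. Folds at these 4 regions were 4.20 to 6.17 in knockout replicate 2 and 5.72 to 7.40 in wild-type replicate 1.

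Some long-list regions were in the authors' deposited knockout-enriched list of differential regions, and none were in the wild-type-enriched list. The knockout-enriched list overlapped 6 of the 3145 (0.191%, 0.0875 to 0.416). It overlapped 0.453% of all merged regions and 0.846% of the 19394 in both long lists. The wild-type-enriched list overlapped 0 of the 3145, against 0.497% of all merged regions and 0.887% of those in both long lists. All 190 wild-type-enriched regions had a peak in wild-type replicate 2, and of the 189 knockout-enriched regions 173 had one in knockout replicate 1 and 123 in wild-type replicate 2. The choice of long-list regions excludes peaks in these libraries, so nothing is read from either count. The 6 lay inside Ccm2, a scaffold of the cerebral cavernous malformation complex, Ak1, an adenylate kinase, Sgpp2, a sphingosine phosphate phosphatase, and Sgsm2, and near Eif3k, a translation initiation subunit, and P4ha1, a collagen prolyl hydroxylase. The Ccm2 region (chromosome 11, 6587323-6587540) stood at percentiles 71.3 in knockout replicate 2 and 56.1 in wild-type replicate 1, and that of P4ha1 (chromosome 10, 59310784-59310968) at 42.3 and 4.14. In all 6 both summits were on the same base, against 5.06% of the 3145.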

How the data were processed

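Peak lists of 4 ATAC-seq libraries and 2 lists of differential regions were used as deposited, on mm10. Each peak has a score, a fold enrichment and −log10 p and q values, as the authors' peak caller gave them. The submitters' processing notes name MACS2, DiffBind 2.2.12, DESeq2, Bowtie2, cutadapt and deepTools, without settings. Peaks are listed per library, the number of reads is not given, and depth is unknown. Peaks overlapping by at least 1 bp were merged, ranked within each list by −log10 q, and placed against 21887 protein-coding RefSeq genes of GRCm38.p6 in Python 3.11.15 with pandas 2.3.3, numpy 2.4.6 and scipy 1.17.1. The nearest gene was the one containing the centre of a region, or else the nearest within 100 kb. Named were the 15 strongest regions, the 10 strongest at gene ends, the 5 genes with the most regions with their ties, regions in the differential lists and up to 4 genes per list, and other names were chosen after their values were seen. The regions and the 20 gene lists were chosen with earlier results of these data known. Merging and presence patterns were tested on simulated peaks, and the finding of gene ends on annotated genes. Ranking was not tested in this way. No test between genotypes was made. Alternatives were the overlap, the −log10 q threshold, list length, gene-end distance, ranking by fold and leaving out each library, and the genotype's own short list and gene starts by strand were added after the data were seen. The result of 1 gene list is not reported here.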

Additional observations from a re-analysis of the deposited data

How the results depend on the processing

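Of 46 alternative values 20 stayed near the reported one, which means within 1.5 times for a count and within the 95% interval of the reported value for a share or median. They include all those for an overlap of 50% of the shorter peak or a −log10 q of at least 5, although that −log10 q gave 9 regions in the differential lists, against 6. With all lists cut to 13877 peaks the rule gave 340 regions, with 46.8% at gene ends, 56.2% inside genes, a median distance to a gene end of 1.91 kb, a median summit distance of 8 bp and 0 in the differential lists. Of those 340, 157 were among the 3145. The gene-end share was 18.5% within 500 bp, 37.4% within 5 kb and 20.6% at strand-aware starts, some of which are missing from the promoter table. The share keeping both peaks was 7.25% when ranked by fold and 10.7% with each genotype's own short list. Leaving out each library gave 4454 to 14192 regions, 14.3% to 30.3% at gene ends, 45.9% to 52.3% inside genes, median distances of 8.13 to 20.4 kb, summit distances of 19 to 22 bp and 6 to 49 regions in the differential lists. The count of regions moved by over 1.5 times without knockout replicate 2 (14192), wild-type replicate 1 (7179) or wild-type replicate 2 (7219), and the count in the differential lists without knockout replicate 1 (49) or wild-type replicate 2 (33). Leaving out a library removes part of the rule, so more regions pass it. No paired analysis was possible because no result comes from a test over libraries. With 2 libraries a genotype and no read counts, how far a missing peak reflects depth was not tested.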

Other observations

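A further 34 merged regions had the same pattern of peaks on chromosome Y, with 3, and on unplaced or unlocalised scaffolds. Outside the named lists, Ccnd1, which encodes the G1 cyclin D1, had 4 long-list regions, all outside the gene, and Foxp1, a forkhead transcription factor, had 4, all inside it. These genes were chosen after their counts were seen.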
